A study of Sus scrofa with 12 samples.

Results

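The genes described here drive DNA replication and cell division in the jejunum of piglets around weaning. They were taken from a list of 42 gene names covering the replicative helicase, nucleotide supply, cyclins and their kinase, the kinetochore, the anaphase-promoting complex and the mitotic spindle. The list was matched to the gene names of the expression table, and 28 of the 42 names were found among 17049 gene names. The other 14 (AURKA, AURKB, BUB1, BUB1B, PLK1, BIRC5, MCM5, MCM6, MCM7, RRM1, RRM2, TYMS, NUSAP1 and NDC80) had no row of that name, and 3 of them (BUB1, BUB1B and NDC80) were found by Ensembl identifier after the data were seen. These 3 are given separately and are not counted among the 28 members. All 28 members passed the filter on low values, so that none was lost from the 12886 genes tested.

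Poly(A) RNA of whole jejunum was sequenced from 12 piglets in 4 groups of 3. According to the public records, sows inseminated with pooled Landrace semen ate a corn and soybean meal diet, either alone or with 300 mg/kg of resveratrol, a plant polyphenol, from 20 days after breeding until the end of lactation. All litters were weaned at 21 days of age and were cross-fostered within a diet. Sucking piglets of control sows (W_Con) and of resveratrol sows (W_Res) were sampled at 21 days, on the day of weaning, and weaned piglets of control sows (PW_Con) and of resveratrol sows (PW_Res) at 28 days, 7 days later. The study's methods describe the control animals differently, as male Yorkshire × Duroc piglets that moved to a nursing room at weaning, whereas the records leave the piglets in their pens. The same records call the 3 libraries of a group biological replicates, and the study's methods take 1 piglet per litter at each age for the control animals, while the spread of resveratrol piglets over sows is not given in the sources used here. Age and weaning cannot be told apart in this design, because no unweaned piglet of 28 days was sampled.

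In the small intestine, cell division is a property of the crypts. Stem cells at the crypt base renew themselves and feed a zone of rapidly dividing progenitors, whose daughters stop cycling as they move onto the villus. Transcripts of replication genes accumulate as a cell enters S phase under the control of E2F factors, and transcripts of the mitotic apparatus peak in G2 and M phase under MYBL2 and FOXM1. In a piece of whole tissue these transcripts come mostly from crypt progenitors, with dividing lymphocytes of germinal centres as a further source, and fewer dividing cells cannot be told apart from less of the RNA per cell.

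The values are FPKM, which count sequenced fragments relative to exon length and to the mapped reads of a library, summed over loci that carry the same gene name. They hold no read counts, so the number of reads behind a gene is unknown. Summed FPKM per library was 313171 to 334469, and 5.48% to 8.47% of it came from loci without a gene name, with the highest shares in W_Res2 (8.47%) and W_Res3 (8.02%). Several libraries stood apart in their tissue markers. The summed FPKM of 8 smooth muscle genes was 1841, 3991 and 671 in the W_Res libraries and 156 to 648 in the other 9. The summed FPKM of 3 genes of the distal small intestine ranged from 51.8 in W_Res2 to 24495 in PW_Res1, and it spanned a wide range within W_Con, W_Res and PW_Res. B cell and germinal centre genes summed to 344 FPKM in PW_Con2 and to 159 to 259 in the other 11 libraries. Marker genes of villus enterocytes, the absorptive cells, summed to 4960 to 32992 FPKM, and no list of cell type markers had a gene at 0 in every library.

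Averaged over the 28 members, the level in log2(FPKM + 1) was 3.44 ± 0.18 (SD, n = 3) in W_Con, 3.65 ± 0.28 in PW_Con, 3.22 ± 0.64 in W_Res and 3.43 ± 0.27 in PW_Res. The libraries of W_Con lay at 3.61, 3.48 and 3.25, and those of PW_Con at 3.41, 3.59 and 3.95. Within the resveratrol litters, the sucking libraries lay at 3.85, 3.24 and 2.58 and the weaned libraries at 3.18, 3.71 and 3.40. The ranges of all 4 groups overlapped, and the differences between group means were no larger than the spread among the 3 libraries of W_Res. The extremes of the whole set, PW_Con3 at the top and W_Res3 at the bottom, were single libraries and not groups.

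**Figure D1:**
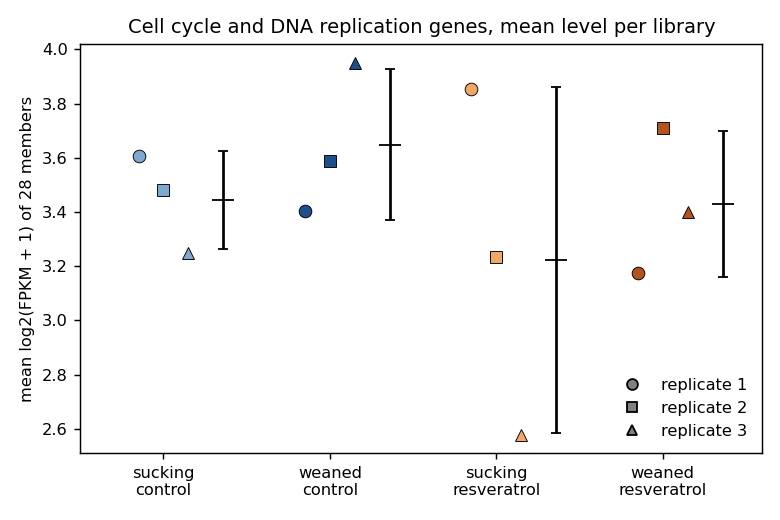
Mean log2(FPKM + 1) of the 28 members in each library (vertical axis) for the 4 groups (horizontal axis). Symbols mark the replicate number, the horizontal bar is the group mean and the vertical bar is 1 SD on either side; the W_Res libraries span 2.58 to 3.85, which covers every other library except PW_Con3.

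The members moved together from library to library. W_Res3 was the lowest of the 12 libraries in 23 of 28 members, against 13.0% of all genes tested. PW_Con3 was the highest of the 12 in 13 members and W_Res1 in 9, against 8.96% and 8.80% of all genes. Within W_Res, replicate 1 was the highest of the 3 in 25 members and replicate 3 the lowest in 24, against 35.4% and 44.4% of all genes. The ratio of W_Res1 to W_Res3 had a median of 2.98 over the members and ran from 0.92 for CCNE1, the cyclin of the G1/S transition, to 5.69 for MYBL2. In all, 27 of 28 members were higher in W_Res1 than in W_Res3, against 57.2% of all genes tested, and the median log2 difference was 1.29 in the members and 0.10 over all genes. The SD on the log2 scale was largest in W_Res for 25 members, against 43.4% of all genes. Its median over the members was 0.66 in W_Res, 0.29 in W_Con, 0.34 in PW_Con and 0.32 in PW_Res, and over all genes tested it was 0.36, 0.26, 0.24 and 0.26.

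Other libraries of a group also kept an order across members. PW_Con3 was the highest PW_Con library in 24 members and in 37.9% of all genes tested, and PW_Res2 the highest PW_Res library in 24 members and in 31.5% of all genes. W_Con3 was the lowest W_Con library in 20 members, and in 50.6% of all genes. Marker lists moved along with some of these differences. The crypt base list, whose sum is mostly OLFM4, a secreted glycoprotein of crypt base cells, summed to 1313, 580 and 408 FPKM in W_Res1, W_Res2 and W_Res3, to 865, 698 and 405 in the W_Con libraries, to 312, 421 and 1302 in the PW_Con libraries and to 203, 958 and 1211 in the PW_Res libraries. As a mean of log2(FPKM + 1), which OLFM4 does not dominate, the 14 matched genes of the list stood at 3.06, 3.17 and 2.59 in W_Res, 2.64, 2.77 and 2.28 in W_Con, 2.61, 2.73 and 3.18 in PW_Con and 2.39, 2.72 and 2.63 in PW_Res. By that measure its highest library matched that of the members' mean in PW_Con and PW_Res, and by the sum in W_Con, PW_Con and W_Res. The distal small intestine list stood at 221, 51.8 and 6323 FPKM in W_Res1, W_Res2 and W_Res3. Villus enterocyte genes summed to 15858, 14846 and 18440 FPKM in the same 3 libraries. The part of these markers in the spread of the members was not tested.

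**Figure D2:**
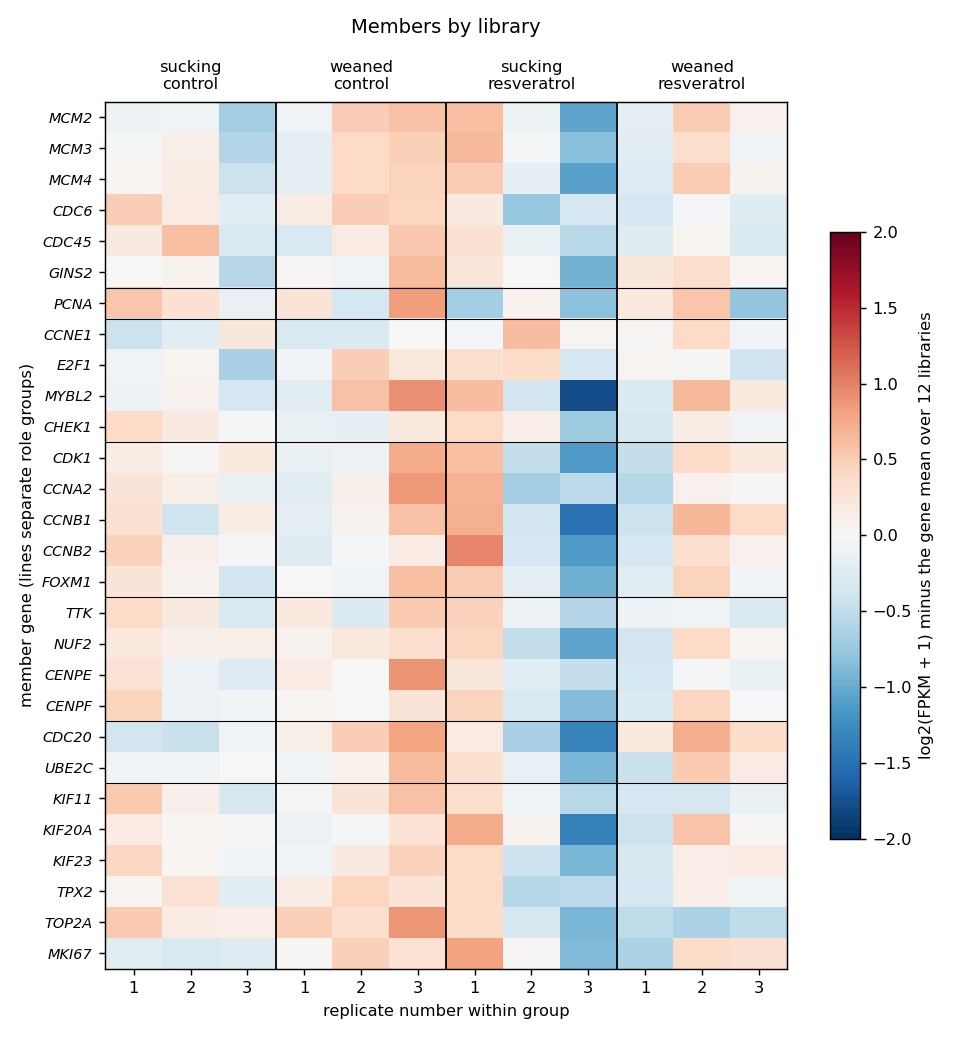
Each row is a member gene, ordered by role with lines between role groups, and each column is a library; colour gives log2(FPKM + 1) minus the mean of that gene over the 12 libraries. The column of W_Res3 is blue in nearly every row and is the lowest of the 12 libraries in 23 of 28 members, and the TOP2A row is blue in all 3 PW_Res libraries.

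A second list of 81 cell cycle genes that are not members, of which 63 were matched (13 of them by Ensembl identifier), is described beside them. W_Res3 was the lowest of the 12 libraries in 42 of these 63 genes, and W_Res1 was the highest in 22. PW_Con3 was the highest in 14. W_Con1, the highest in 0 members, was so in 11, and it was the highest in 11.9% of all genes tested. Their summed FPKM was 994, 660 and 465 in W_Res1, W_Res2 and W_Res3, and 572 to 930 in the other 9 libraries.

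The helicase and licensing genes load and open replication origins, and 6 of 9 were matched. MCM4, a subunit of the MCM2-7 helicase and the most abundant of the 6, had 42.9, 46.3 and 30.9 FPKM in W_Con, 37.0, 55.4 and 57.4 in PW_Con, 60.0, 37.2 and 19.1 in W_Res and 34.9, 60.2 and 43.8 in PW_Res. MCM3 had 15.5 to 26.0 FPKM in W_Con, 20.7 to 33.6 in PW_Con, 12.9 to 37.8 in W_Res and 20.4 to 30.6 in PW_Res. MCM2 had 20.4, 20.7 and 13.4 FPKM in W_Con and 21.0, 31.5 and 33.6 in PW_Con. The PW_Con libraries of MCM2 all lay above those of W_Con, with a narrow gap between 20.7 and 21.0 FPKM, while its W_Res libraries (34.2, 20.6 and 10.1 FPKM) enclosed those of PW_Res (19.3, 32.0 and 23.4 FPKM). CDC6, which loads the helicase, had 1.89 to 4.53 FPKM in W_Res and 2.87 to 3.79 in PW_Res, against 3.22 to 5.88 in W_Con and 4.41 to 5.89 in PW_Con. CDC45 and GINS2, which complete the active helicase, ranged from 5.70 to 13.8 and from 1.13 to 5.36 FPKM.

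PCNA, the sliding clamp of the DNA polymerases, was the only matched member of the clamp and nucleotide group. It had 29.8, 24.9 and 18.0 FPKM in W_Con, 24.2, 15.5 and 36.5 in PW_Con, 12.1, 21.0 and 10.9 in W_Res and 23.4, 30.0 and 11.1 in PW_Res. Its order of libraries differed from that of most members, since W_Res1, the highest library in 9 members, was among the lowest for PCNA.

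All 4 of the G1/S regulators were matched. MYBL2, a transcription factor of the late cell cycle, had 34.2, 39.3 and 29.1 FPKM in W_Con, 31.9, 55.8 and 70.6 in PW_Con, 57.3, 28.3 and 10.1 in W_Res and 30.4, 58.7 and 42.4 in PW_Res. It varied most of all members, with 7.01 times as much in PW_Con3 as in W_Res3. E2F1, an activator of replication genes, stayed between 1.84 and 5.28 FPKM and CHEK1, the replication checkpoint kinase, between 1.05 and 3.47 FPKM. CCNE1 had 1.27, 1.66 and 2.59 FPKM in W_Con, 1.49, 1.53 and 2.05 in PW_Con, 2.01, 3.69 and 2.18 in W_Res and 2.11, 3.07 and 1.96 in PW_Res. It was the member with the highest log2 fold change of resveratrol against control litters at both ages, and it alone among the 28 was lower in W_Res1 than in W_Res3.

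Of the 9 G2/M regulators 5 were matched. CCNB1, the cyclin that brings cells into mitosis with CDK1, had 23.6, 14.1 and 21.0 FPKM in W_Con, 16.3, 19.8 and 28.7 in PW_Con, 31.3, 14.3 and 6.08 in W_Res and 13.7, 30.5 and 24.9 in PW_Res. CDK1, the mitotic kinase, ranged from 4.65 FPKM in W_Res3 to 19.8 in PW_Con3. CCNA2, CCNB2 and FOXM1 ranged from 3.53 to 12.1, from 4.54 to 22.8 and from 2.94 to 10.8 FPKM. Within each of these 5 genes the ranges of W_Res and PW_Res overlapped, as did those of W_Con and PW_Con.

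The kinetochore genes were the least abundant group, with 4 of 7 matched. CENPF, a large kinetochore protein, had 3.48 to 10.1 FPKM and NUF2, a subunit of the NDC80 complex that holds microtubules, 1.97 to 7.32 FPKM. TTK, a kinase of the spindle checkpoint, and CENPE, a kinetochore motor, had means of 1.88 and 1.14 FPKM, where log2(FPKM + 1) compresses a change. The 3 genes found by Ensembl identifier belong to the same role. BUB1, a checkpoint kinase, had 2.89 to 8.26 FPKM, BUB1B 1.11 to 8.51 FPKM and NDC80 1.56 to 5.69 FPKM, and W_Res3 was the lowest library for BUB1 and BUB1B.

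CDC20 and UBE2C serve the anaphase-promoting complex, the ubiquitin ligase that ends mitosis, CDC20 as its activator and UBE2C as its ubiquitin-conjugating enzyme. CDC20 had 21.0, 20.0 and 25.7 FPKM in W_Con and 29.9, 39.1 and 48.3 in PW_Con. In the resveratrol litters it had 31.0, 17.1 and 10.3 FPKM in W_Res and 31.7, 46.2 and 35.8 in PW_Res. Every weaned library was higher than every sucking library of the same diet, by a narrow gap between 31.0 and 31.7 FPKM in the resveratrol litters. UBE2C, its partner, had 38.6, 39.1 and 40.6 FPKM in W_Con, 38.5, 42.6 and 63.3 in PW_Con, 51.1, 36.4 and 21.1 in W_Res and 29.4, 59.2 and 45.8 in PW_Res, and its groups overlapped.

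The spindle and chromosome group had 6 of 7 members matched. MKI67, the Ki-67 antigen used as a marker of cycling cells, had the highest summed value of all members with 42.2, 39.1 and 40.6 FPKM in W_Con, 49.7, 68.2 and 59.5 in PW_Con, 86.0, 49.3 and 25.9 in W_Res and 31.0, 63.1 and 60.4 in PW_Res. Its name is carried by 6 loci, and a sum of FPKM over pieces of a gene exceeds the value of the whole gene, so its rank among members is uncertain. CDC20, UBE2C and NUF2 have 2 loci each, of which 1 holds most of the FPKM. The kinesins KIF11, KIF20A and KIF23, motors of the spindle and midzone, and TPX2, a spindle assembly factor, ranged from 1.61 to 4.76, 5.81 to 28.0, 5.41 to 15.7 and 9.97 to 20.8 FPKM. TOP2A, the topoisomerase that untangles sister chromosomes, had 18.8, 14.3 and 14.1 FPKM in W_Con, 18.2, 16.4 and 24.3 in PW_Con, 16.8, 10.1 and 6.31 in W_Res and 8.72, 7.94 and 8.66 in PW_Res. The 3 PW_Res values of TOP2A had an SD of 0.438 FPKM, and all were lower than any PW_Con value.

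**Figure D3:**
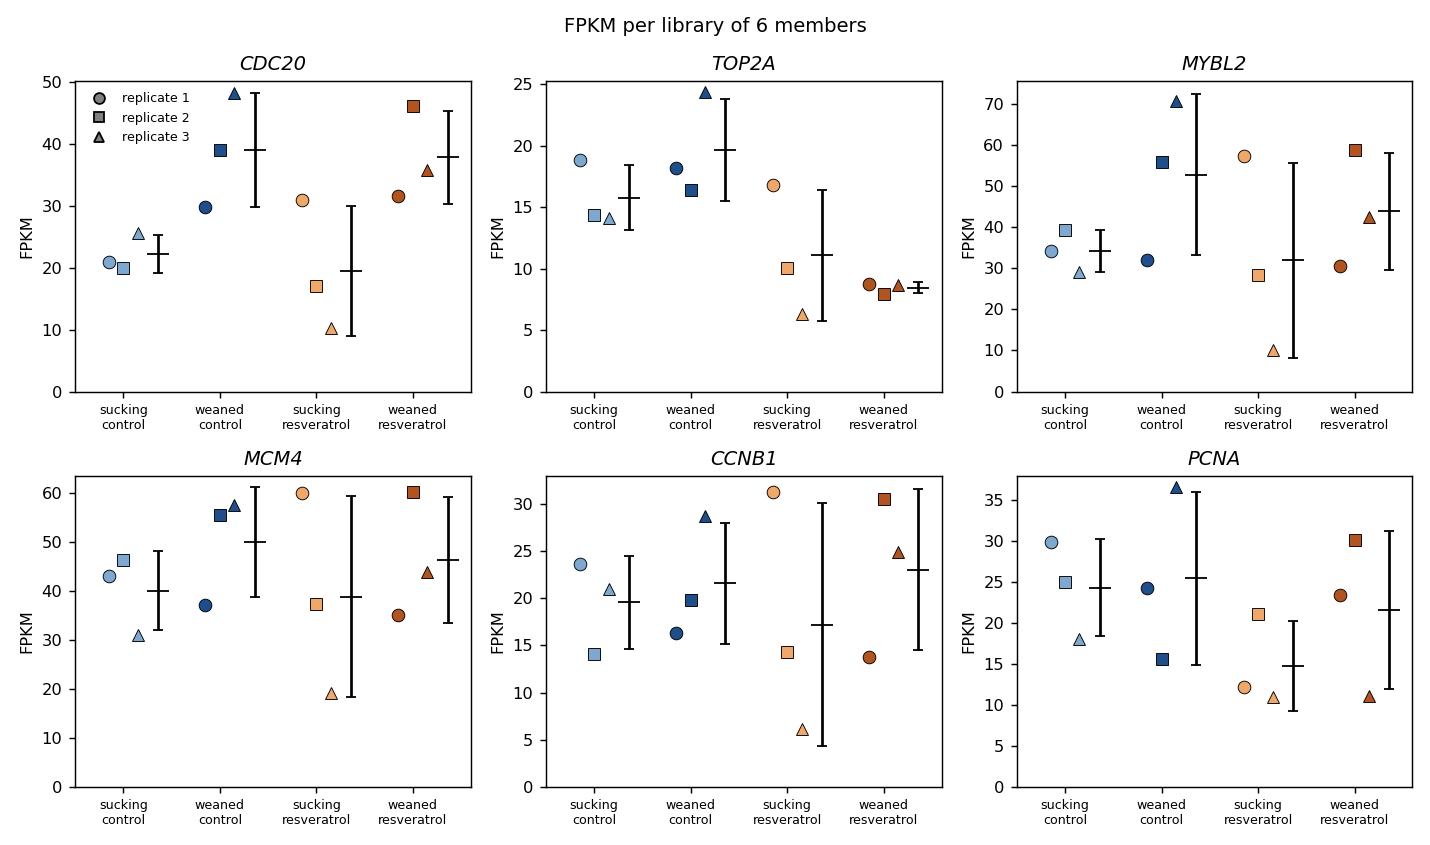
FPKM per library (vertical axes, starting at 0) of CDC20, TOP2A, MYBL2, MCM4, CCNB1 and PCNA in the 4 groups, with symbols for the replicate number, the group mean as a horizontal bar and 1 SD as a vertical bar. CDC20 is higher in every weaned library than in every sucking library of the same diet. TOP2A has its lowest group mean and smallest SD in PW_Res, with its lowest single value in W_Res3, and the other 4 genes overlap between groups.

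Differences between groups were tested in limma on the log2(FPKM + 1) scale, with one estimate of the spread over all 12 libraries. The study's standard was used to call a gene: its log2 fold change lies outside -1 to 1 and its unadjusted P is under 0.05. Beside it stands the adjusted p (Benjamini-Hochberg, over all 12886 genes). The comparisons share groups and are not independent of each other. The 95% interval of a member's log2 fold change reached 0.53 to 1.10 to either side of the estimate (median 0.71), with the spread of all 4 groups pooled. In 0 of the 28 members was the adjusted p of limma under 0.05 in any comparison, and of all genes 0.0466% passed it in sucking piglets of resveratrol against control sows and 0% elsewhere.

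The first comparison asks how the jejunum of control litters changed over the week after weaning. In PW_Con against W_Con, 23 of 28 members had a log2 fold change above 0, where 48.4% of all genes did, and the median was 0.19 in the members and -0.01 over all genes. Of the members 0 were called at the standard by limma, as were 3.10% of all genes, and 1 had an unadjusted P under 0.05, as had 15.3% of all genes. That member was CDC20, with a log2 fold change of 0.77 (95% interval 0.05 to 1.49, limma unadjusted P = 0.0378, adjusted p = 0.296). The unadjusted P of CDC20 in limma was 0.0762 to 0.127 without W_Con1, W_Con2, PW_Con2 or PW_Con3, and the estimate was 0.61 without PW_Con3. At the same estimate of 0.77, the unadjusted P in limma was 0.06 with a replicate block and 0.0476 without W_Res2. It was 0.00965 without W_Res1, 0.0128 without W_Res3 and 0.00807 with only the 6 libraries of the comparison. The groups did not overlap in 3 members, MCM2, CDC20 and MKI67, all higher in weaned piglets, and 12.5% of all genes were separated in that direction. For MCM2 the log2 fold change was 0.63 and for MKI67 0.52, and their intervals included 0. At the other end stood CHEK1 at -0.22 and CCNB2 at -0.22, with overlapping groups. The members' median was 0.0076 without PW_Con3 and 0.31 without PW_Con1.

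By role, the helicase group had a median log2 fold change of 0.33 with 5 of 6 genes above 0, the G2/M group 0.13 with 4 of 5, the kinetochore group 0.06 with 4 of 4 and the spindle group 0.21 with 5 of 6. The G1/S group had 0.19 with 2 of 4 above 0, the 2 genes of the anaphase-promoting complex 0.51 with both above 0, and PCNA stood at 0.01. Apart from CDC20 none of these genes had an unadjusted P under 0.05, and none was called at the standard. Among the other cell cycle genes 43 of 63 were above 0 with a median of 0.11, and 1 was called. This was CDT1, the licensing factor that loads the helicase together with CDC6, which rose by a log2 fold change of 1.20 (limma unadjusted P = 0.00193, adjusted p = 0.111). CDT1 had 2.46, 3.59 and 2.48 FPKM in W_Con and 6.18, 8.96 and 8.46 in PW_Con, with no overlap. In the same comparison 6 of 13 villus enterocyte genes fell at the standard, and their summed FPKM was 12648 to 32992 in W_Con and 4960 to 16151 in PW_Con. Of 10 B cell and germinal centre genes tested 2 rose, with sums of 159 to 170 FPKM in W_Con and 183, 344 and 226 in PW_Con. Both genes, CD79B (2.25, 37.5 and 3.29 FPKM) and POU2AF1 (3.23, 22.2 and 3.87 FPKM), were high in PW_Con2 alone among the PW_Con libraries. The distal small intestine list summed to 8228, 1337 and 61.6 FPKM in W_Con and to 9919, 9063 and 6708 in PW_Con, with 0 of 3 genes called, and the proximal list to 23.3 to 167 FPKM in W_Con and 18.2 to 25.9 in PW_Con, with 1 of 5 called lower. The part of these lists in the results for CDC20 and CDT1 was not tested.

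In the litters of resveratrol sows, PW_Res against W_Res, 20 of 28 members had a log2 fold change above 0, where 34.7% of all genes did. The median was 0.21 in the members and -0.15 over all genes. CDC20 was the 1 member called, in the higher direction, as were 0.986% of all genes, and the 1 member with an unadjusted P under 0.05, as had 17.6% of all genes. It rose by a log2 fold change of 1.04 (95% interval 0.32 to 1.76, limma unadjusted P = 0.00864, adjusted p = 0.167). It was also the 1 member whose groups did not overlap, against 3.98% of all genes that were higher without overlap. The estimate was 0.68 without W_Res3 and 0.89 without PW_Res2, which ended the call, and 1.42 without W_Res1, where the adjusted p of limma reached 0.0462. In that last fit 110 of 12868 genes had an adjusted p under 0.05, against 0 with all libraries.

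The next highest members were MYBL2 at 0.70, CCNB1 at 0.59 and PCNA at 0.47, with intervals that included 0. TOP2A was lowest at -0.26 and E2F1 stood at -0.23. These estimates rested on the W_Res libraries, which spread widely. Without W_Res1, 3 members passed the standard, CDC20, MYBL2 (1.27) and CCNB1 (1.14), and 8 had an unadjusted P under 0.05, all higher. In that fit 232 of 12868 genes passed the standard as higher and 869 as lower, and 817 were higher and 2055 lower at an unadjusted P under 0.05. Without W_Res3, 0 members passed it and the median of the members was -0.11 instead of 0.21. Smooth muscle genes fell at the standard in 7 of 8 cases in this comparison and fibroblast genes in 4 of 6. With all libraries, 509 of 12886 genes fell and 127 rose at the standard. Summed FPKM of smooth muscle genes was 671 to 3991 in W_Res and 206 to 645 in PW_Res, and the part of these tissues in the members' differences was not tested.

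CDC20 departed from the other members in weaned piglets of both diets. Its log2(FPKM + 1) minus the mean of the other 27 members was 0.88, 0.94 and 1.54 in W_Con and 1.60, 1.80 and 1.73 in PW_Con. In the resveratrol litters it was 1.19, 0.98 and 0.96 in W_Res and 1.92, 1.92 and 1.87 in PW_Res. Relative to the rest of the module, therefore, CDC20 was higher in all 6 weaned libraries than in any sucking library, and W_Res1 and W_Res3, which differ widely in its absolute level, lay close together. This measure was chosen after the values were seen and has no test.

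**Figure D4:**
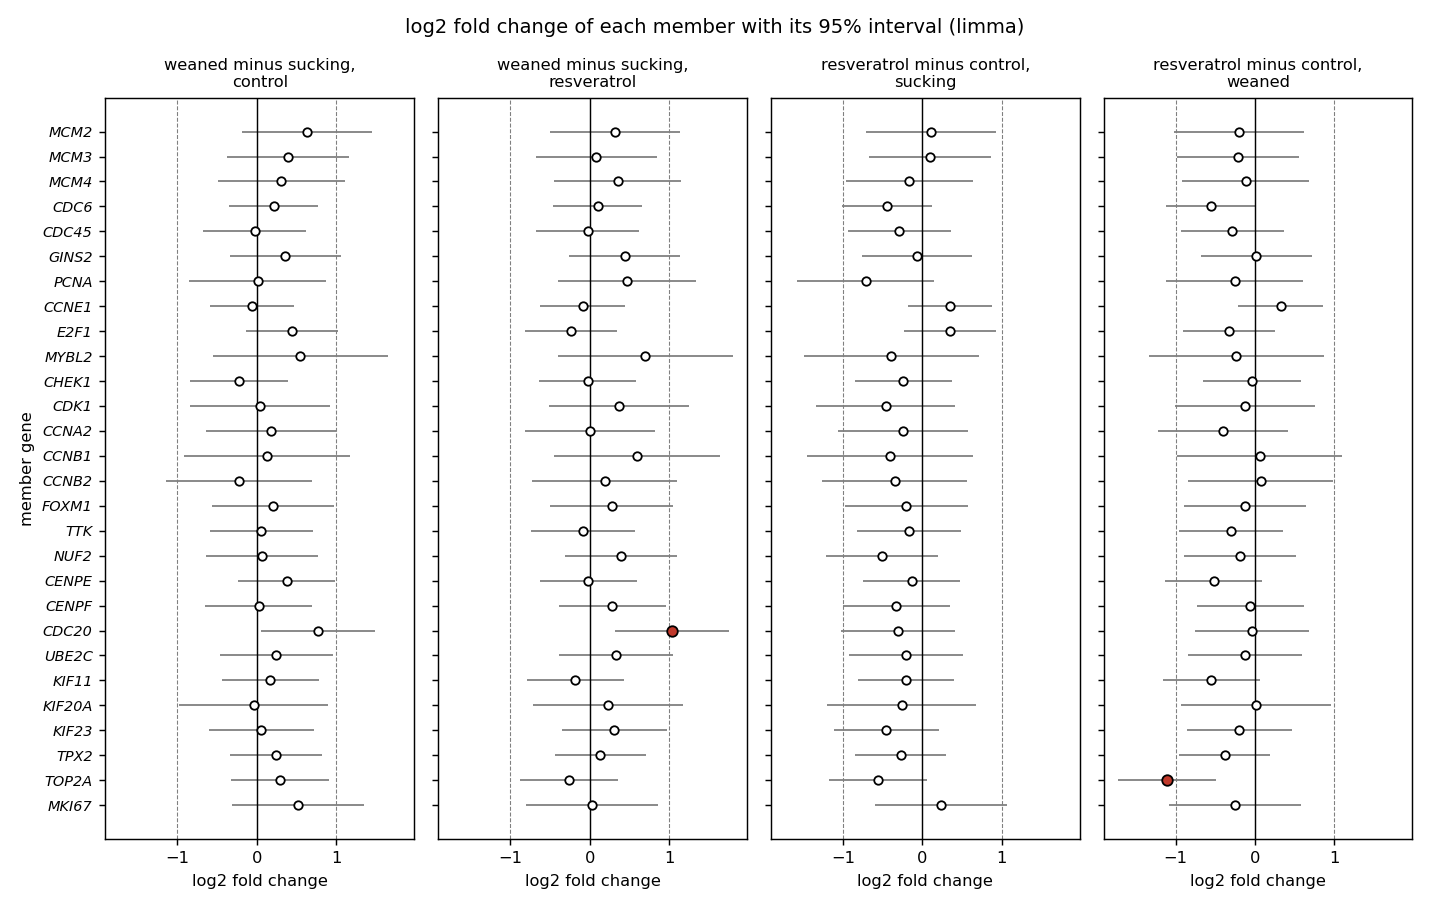
Log2 fold change (horizontal axis, circles) of each member with its 95% interval from limma (lines) in 4 comparisons, one per panel, with dashed lines at -1 and 1. Filled red circles passed the standard of the study, which CDC20 did in weaned against sucking piglets of resveratrol litters and TOP2A in resveratrol against control litters of weaned piglets; most other intervals include 0.

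The second question is whether jejunum differed between litters of resveratrol and control sows at the same age. In sucking piglets, W_Res against W_Con, 23 of 28 members had a log2 fold change below 0 and 5 above it, where 57.3% of all genes were above 0. Their median was -0.25, and the median over all genes was 0.08. Of the members 0 were called by limma, as were 4.77% of all genes, and 0 had an unadjusted P under 0.05, as had 18.5% of all genes. The groups were apart in 0 members and in 21.0% of all genes. PCNA was lowest at -0.71 and CCNE1 highest at 0.35, both with intervals that included 0. TOP2A, at -0.56, had the lowest unadjusted P of 0.0733 (limma, adjusted p = 0.316).

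W_Res1 and W_Res3 moved this comparison in opposite directions. Without W_Res1, 10 members had an unadjusted P under 0.05 in limma, all lower in resveratrol litters, among them TOP2A at -0.89, NUF2 at -0.91 and CCNB2 at -0.91, and the median of the members was -0.58. In that fit 1039 of 12868 genes were lower and 1796 higher at an unadjusted P under 0.05, and 120 passed the adjusted p against 6 with all libraries. Without W_Res3 the members' median was 0.09. Of the 3 genes found by Ensembl identifier, BUB1B had a log2 fold change of -0.83 (limma unadjusted P = 0.0493, adjusted p = 0.269), and it was 8.51, 4.20 and 3.77 FPKM in W_Con and 5.07, 2.30 and 1.11 in W_Res. Smooth muscle genes rose at the standard in 7 of 8 cases here, and T cell genes fell in 4 of 10, with sums of 137 to 184 FPKM in W_Con and 50.1 to 83.5 in W_Res. The part of these cells in the members' differences was not tested.

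In weaned piglets, PW_Res against PW_Con, 23 of 28 members again had a log2 fold change below 0, with a median of -0.20 in the members and -0.07 over all genes, of which 41.0% were above 0. TOP2A was the 1 member called, as were 0.900% of all genes in the lower direction, and the 1 with an unadjusted P under 0.05, as had 7.76% of all genes. It fell by 1.11 on the log2 scale (95% interval -1.73 to -0.49, limma unadjusted P = 0.00222, adjusted p = 0.411). The mean was 19.6 ± 4.15 FPKM (SD, n = 3) in PW_Con and 8.44 ± 0.438 FPKM in PW_Res. Leaving out 1 library at a time gave -1.22 to -0.95, and without PW_Con3, the highest PW_Con library, the estimate of -0.95 no longer passed the fold limit.

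The groups did not overlap in 5 members, CDC6, CENPE, KIF11, TPX2 and TOP2A, all lower in PW_Res, against 11.8% of all genes in that direction. KIF11 had 2.77, 3.59 and 4.76 FPKM in PW_Con and 2.01, 2.05 and 2.44 in PW_Res. CDC6 had a log2 fold change of -0.56, KIF11 of -0.55, CENPE of -0.52 and TPX2 of -0.38, and none of these passed the test. CCNA2 stood at -0.40, with overlapping groups. CCNE1 was highest at 0.32, and CDC20 (-0.03), KIF20A (0.01) and GINS2 (0.02) had nearly the same mean in both groups, with intervals that reached 0.72, 0.94 and 0.70 to either side. The members' median was -0.36 without PW_Res2 and close to 0 (-7.58e-05) without PW_Res1.

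TOP2A departed from the other members in PW_Res. Its log2(FPKM + 1) minus the mean of the other 27 members was 0.63 ± 0.14 (SD, n = 3) in W_Con, 0.29 ± 0.04 in W_Res, 0.73 ± 0.17 in PW_Con and -0.20 ± 0.34 in PW_Res, again without a test. Markers of gut position and of lymphocytes differed among the same libraries. The distal small intestine list summed to 9919, 9063 and 6708 FPKM in PW_Con and to 24495, 89.3 and 99.0 in PW_Res, with 0 of 3 genes called. The proximal small intestine list summed to 25.9, 18.2 and 20.3 FPKM in PW_Con and to 101, 54.4 and 65.6 in PW_Res, without overlap and with 2 of 5 genes called higher. B cell and germinal centre genes summed to 183, 344 and 226 FPKM in PW_Con and 169, 232 and 191 in PW_Res, mostly from CD79A. By mean log2(FPKM + 1) this list stood at 1.70, 3.74 and 1.79 in PW_Con, highest in PW_Con2, and at 1.38, 1.72 and 1.60 in PW_Res. Of its 10 tested genes 2 were called lower, CD22 and S1PR2, both without overlap. CD22 had 5.10, 12.6 and 4.06 FPKM in PW_Con and 2.86, 2.16 and 2.35 in PW_Res. S1PR2 had 4.28, 10.5 and 3.49 FPKM in PW_Con and 1.04, 3.03 and 2.49 in PW_Res. T cell genes summed to 101 to 169 FPKM in PW_Con and 42.9 to 106 in PW_Res, with 0 of 10 called. The part of gut position and of lymphocytes in the fall of TOP2A was not tested.

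Among the other cell cycle genes, 52 of 63 had a log2 fold change below 0 in PW_Res against PW_Con, with a median of -0.21, and 1 was called. E2F3, an activator of the E2F family that acts at S phase entry, had 13.7, 10.5 and 9.25 FPKM in W_Con, 6.66, 8.02 and 5.20 in PW_Con, 8.0, 6.16 and 6.65 in W_Res and 2.45, 1.07 and 1.51 in PW_Res. All 3 PW_Res values lay under those of the other 9 libraries. E2F3 fell by 1.53 on the log2 scale in PW_Res against PW_Con (limma unadjusted P = 3.48e-05, adjusted p = 0.149) and by 1.60 in PW_Res against W_Res (limma unadjusted P = 2.32e-05, adjusted p = 0.0746). E2F1, its relative among the members, stood at -0.33 and -0.23 in the same comparisons and was not called. Leaving out 1 library at a time left E2F3 past the standard in both comparisons.

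**Figure D5:**
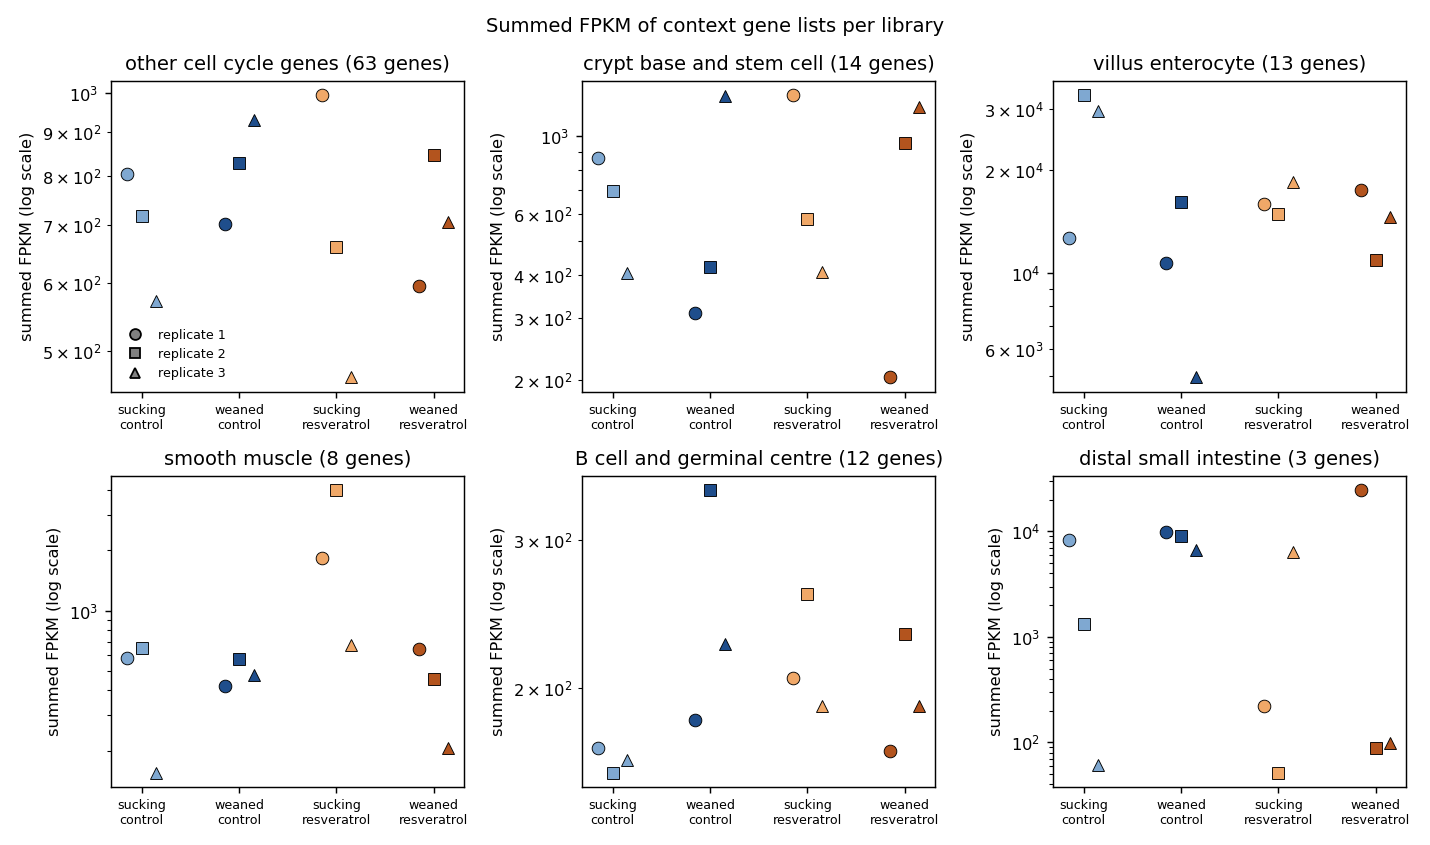
Summed FPKM (vertical axes, log scale) of 6 gene lists that are not members, per library and group, with symbols for the replicate number. The other cell cycle genes are lowest in W_Res3, smooth muscle genes are highest in W_Res, and the distal small intestine list spans 51.8 to 24495 FPKM.

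The last comparison asks whether the change from sucking to weaned piglets differed between the 2 maternal diets. The difference of the log2 fold changes, resveratrol minus control litters, was above 0 in 15 members and below 0 in 13, where 39.1% of all genes were above 0, with a median of 0.06 in the members and -0.15 over all genes. Of the members 0 were called by limma, as were 7.76% of all genes, and 0 had an unadjusted P under 0.05, as had 13.7% of all genes. E2F1 had the lowest value at -0.67 (95% interval -1.49 to 0.15, limma unadjusted P = 0.10, adjusted p = 0.442), and CCNB1 the highest at 0.46. For CDC20 the difference was 0.27 (95% interval -0.75 to 1.28), so its call in resveratrol litters alone does not show a larger rise there. For TOP2A it was -0.55 (95% interval -1.43 to 0.33). The half-width of the interval had a median of 1.0 log2 units over the members.

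Rescaling the libraries moved the medians of all genes and of the members, while the number of members past the standard was the same. In PW_Res against W_Res the median over all genes was -0.15 as deposited, 0.01 after quantile normalization and close to 0 (-0.00085) after median-of-ratios scaling. The members' median was 0.21, 0.28 and 0.40 in the same order, with CDC20 the 1 member called each time. In the difference between diets the median over all genes was -0.15, 0.01 and -0.01 and that of the members 0.06, 0.16 and 0.22 in that order, with 0 members called. Of all genes called, the share in the higher direction was 20.0% as deposited and 44.6% after quantile normalization in PW_Res against W_Res, 69.9% and 54.4% in W_Res against W_Con, 42.0% and 52.0% in PW_Res against PW_Con, and 23.3% and 45.7% for the difference between diets. After median-of-ratios scaling these shares were 39.4%, 60.6%, 56.7% and 40.8%, and the members' median in PW_Res against PW_Con was -0.11 instead of -0.20. The sign of the members' median was the same under both scalings tried in all 5 comparisons.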

How the data were processed

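Jejunum libraries of 12 piglets (3 in each of 4 groups named in the sample labels) were analysed. The authors aligned paired-end reads and made the deposited FPKM values with StringTie and Ballgown. Their methods name TopHat, and the submitters' processing notes list Bowtie 0.12.2, HISAT2 2.0, StringTie 1.3.0 and the builds mm8 (a mouse build) and Sscrofa10.2, so the aligner is uncertain. The table had 41264 loci with 0 value columns unmatched, and the 17650 that carry no gene name (42.8%) were not analysed. No read counts were used here, so the depth and counting precision behind a gene are unknown.

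FPKM were summed by gene name and tested as log2(FPKM + 1) with limma 3.58.1 in R 4.3.3 (lmFit, eBayes with a trend), in genes with a mean of at least 0.5 FPKM. The method was tested on simulated data with 200 changed genes. There, noise was independent between genes, the spread of a gene was the same in all groups, and only PW_Con was shifted. The members moved together and spread most in W_Res, so the simulation does not show how the fit handles them. Summaries used Python 3.11.15, pandas 2.3.3 and matplotlib 3.10.9. The members and gene lists were chosen with earlier results of these data known. Named were members past the standard, those with an unadjusted P under 0.05 (the 3 lowest P per comparison in full), the 2 with the highest mean FPKM per role, the extremes of each comparison, and, of the other cell cycle, inhibitor and crypt lists, genes past the standard and the 2 highest. Marker lists of other cell types are given as counts and sums. Only the B cell and germinal centre list also has single genes named, and called genes of the other cell type lists are not named. As alternatives the fit was repeated with 0.1 as pseudocount, without the filter or with at least 5 FPKM, with median-of-ratios or quantile scaling, without the trend, with a replicate block, on the 6 libraries of a comparison alone, on the highest locus of a name, and without each library in turn. Adding 3 genes by Ensembl identifier was chosen after seeing the data. No sequences are shown.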

Additional observations from a re-analysis of the deposited data

Results flagged for a closer look

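Among the other cell cycle, inhibitor and crypt base genes, 4 had a change from sucking to weaned piglets that differed between maternal diets at the study's standard, by limma's test of the difference. They were 1 of 63, 1 of 8 and 2 of 11 genes tested, and none of them is a member. BTG1, an antiproliferative transcription cofactor, changed by -0.11 in control litters and by -1.65 in resveratrol litters, a difference of -1.53 (limma adjusted p = 0.251). CD44, a hyaluronan receptor of crypt and immune cells, changed by 0.98 and -0.66, a difference of -1.64 (limma adjusted p = 0.251). CDC25B, a phosphatase that activates cyclin-dependent kinases, changed by 0.99 and -0.22, a difference of -1.21 (limma adjusted p = 0.317), which ran from -1.63 to -0.83 with 1 library left out and kept the call in 6 of 12 such fits. PROM1, a membrane protein of stem and progenitor cells, changed by -0.20 and -1.20, a difference of -1.0 (limma adjusted p = 0.256), which ran from -1.21 to -0.81 with 1 library left out, kept the call in 6 of 12 such fits, and was under the fold limit after either rescaling. At the same standard 7.76% of all genes were called in this comparison. Smooth muscle genes were called lower in 6 of 8 (median -2.44), B cell and germinal centre genes lower in 3 of 10 (median -1.37) and villus enterocyte genes higher in 3 of 13 (median 1.10), and their part in these 4 differences was not tested.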

How the results depend on the processing

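Outside the settings that left out a library, the values for the members' calls, medians and levels stayed within 1.5 times or 1 SD of those reported in 153 cases and moved in 10, all but 1 of them counts of members with an unadjusted P under 0.05. With only the 6 libraries of a comparison in the fit, that count was 3 in control litters, 1 in sucking and 3 in weaned piglets of resveratrol against control sows. Over all genes, 1179 of 12611, 580 of 13186 and 838 of 12380 passed in the members' direction in these fits. In sucking piglets it was 1 after median-of-ratios scaling, 2 after quantile normalization and 1 (BUB1B) with the 3 further members, and in resveratrol litters 2 after quantile normalization. In the same order 965 of 12837, 1185 of 12886, 702 of 12886 and 789 of 12886 genes passed in the members' direction. A pseudocount of 0.1 moved the mean level of W_Con to 3.24. A minimum of 5 FPKM left 20 members. The cause was not tested.

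With 1 library left out, members past the standard numbered 0 (without W_Res3 or PW_Res2) to 3 (without W_Res1) in resveratrol litters and 0 (without PW_Con3) to 1 in weaned piglets of resveratrol against control sows, and 0 in the other comparisons. Members with an unadjusted P under 0.05 numbered 0 to 2 in control litters, 1 to 8 in resveratrol litters, 0 to 10 in sucking and 1 to 3 in weaned piglets of resveratrol against control sows, and 0 to 2 for the difference between diets. In the fit with the highest count, 1150 of 12821 genes passed in the members' direction in control litters and 817 of 12868 in resveratrol litters. The number was 1039 of 12868 in sucking and 551 of 12919 in weaned piglets, and 1669 of 12821 for the difference. In PW_Res against W_Res, TOP2A ran from -0.57 without W_Res3 to 0.069 without W_Res1. In the difference between diets, CCNB1 ran from -0.085 without W_Res3 to 1.01 without W_Res1, CDC20 from -0.094 to 0.65, and the median of the members from -0.27 to 0.34.

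Same-numbered libraries were not consistently alike: over 18 pairs the correlation of deviations was -0.26 to 0.30. Of these 5 exceeded 0.1, and 4 of 12 libraries matched their own number best. Between W_Con and PW_Con it was -0.06, 0.09 and -0.01. The study's methods sample both ages from the same litters, so the control groups may hold littermates. The labels do not give the litter, so this check cannot show whether they do. The main fit did not pair libraries. With a replicate block the count of members with an unadjusted P under 0.05 was 0 in control litters and 1 (E2F1) for the difference between diets, and counts past the standard were the same. For that difference 1421 of 12886 genes passed in the direction of E2F1. Without read counts, low genes such as CENPE and TTK carry an unknown counting error.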

Other observations

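Genes that hold back the cell cycle were described beside the members, with 8 of 14 matched. BTG1 was the most abundant of them, with 49.0, 29.5 and 29.0 FPKM in W_Con, 40.8, 23.9 and 33.8 in PW_Con, 45.4, 55.6 and 53.2 in W_Res and 16.8, 13.4 and 17.3 in PW_Res. All 3 PW_Res libraries lay under the other 9. BTG1 fell by 1.65 on the log2 scale in PW_Res against W_Res (limma unadjusted P = 2.83e-05, adjusted p = 0.0746), and leaving out 1 library at a time gave -1.73 to -1.54. CDKN2B, an inhibitor of the cyclin D kinases and the next in abundance, had 7.73 to 23.3 FPKM and was called in no comparison.

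Of the crypt base genes 11 of 14 matched were tested. OLFM4, the most abundant of them, ranged from 146 FPKM in PW_Res1 to 1213 in W_Res1 with overlap of all groups. MYC, a transcription factor that drives growth and the next in abundance, had 12.4 to 24.9 FPKM and was called in no comparison. CD44 had 8.88 to 14.0 FPKM in PW_Con and 3.36 to 5.41 in PW_Res, without overlap, and it fell by 1.12 on the log2 scale (limma unadjusted P = 0.000371, adjusted p = 0.339). Its estimate was -0.95 without PW_Con3 and -0.96 without PW_Res1, inside the fold limit. Of the other cell cycle genes the most abundant were STMN1, a regulator of microtubules, with 36.5 to 96.5 FPKM, and RFC2, a subunit of the clamp loader, with 27.6 to 79.0 FPKM, and neither was called.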
